A study of Mus musculus with 12 samples.

Results

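The change in allele use over time was followed in the LowK course, which consists of 3 of the 12 libraries of the series: cells derived from mouse embryonic fibroblasts (MEF) that had received the Sendai virus reprogramming vector SeVdp(fKOSMaB), grown without Shield1 and taken at days 35, 52 and 56. The 2 steps between those days lasted 17 and 4 days. All single-base X-chromosome variants read at least 20 times and listed on both days of a step were used, and their reads were summed per gene, which left 243 genes at 1813 sites for the first step and 253 genes at 2068 sites for the second. For comparison, the MidK1 course carried the same vector, received 30 nM Shield1 (a ligand that protects destabilising-domain fusion proteins from degradation) and was sampled on the same days, and the day 0 libraries MEF1 and MEF2 came from fibroblasts with neither vector nor agent. Every group therefore had 1 library, except MEF with 2, and nothing in the labels says that the 2 were separate cultures. The tests below compare libraries and cover counting error only, because the spread between cultures was not measured. Strain, the parental origin of either X chromosome, any feeder layer and clonality of the cultures are not stated in the sources used here.

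In female mammals 1 X chromosome of each somatic cell is silenced by the noncoding RNA Xist, a set of genes escapes that silencing, and reprogramming to pluripotency can wake the silent copy. Where the 2 X chromosomes differ in sequence, RNA reads tell them apart, and a gene that is reactivated gains reads of the second allele. In these tables most sites were read almost entirely from the allele that differs from the reference genome, so the reference share, the percentage of covering reads that do not carry the variant, served as the measure of the second allele. A position read only from the reference allele is not listed, so genes expressed from that allele alone are not seen. Several variants of a gene can lie on the same read, and the reads carry no molecular identifiers. In bulk RNA, more cells with a second active allele and more RNA of that allele per cell cannot be told apart.

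The 3 LowK libraries held 2258 to 2741 usable sites in 264 to 286 genes, with 138579 to 173722 reads over those sites and a median coverage of 35 to 38 reads per site. Fibroblast markers on the X chromosome summed to 2215, 1821 and 1283 reads per 100000 at days 35, 52 and 56, with sites in 5, 4 and 4 of the 8 markers, against 26242 in MEF1 with 7 of 8. Gpc3, a cell surface proteoglycan, supplied 1524, 1193 and 894 of these and had no usable site in MEF1, and without it the sums were 691, 629 and 388. Fhl1 gave 354, 490 and 275 and Plp2 25.3, 96.7 and 44.5, both highest at day 52. Srpx, Srpx2 and Col4a5 had no usable site on any LowK day. Markers of pluripotent cells summed to 216, 280 and 344 reads per 100000, with sites in 2, 3 and 3 of the 6, and had none in MEF1. Dusp9, Nr0b1 and Fthl17a had no usable site in any of the 3 LowK libraries. The part of these changes in cell type markers in the results below was not tested.

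The sites below show what was read. Each is the best covered site of its gene on the LowK days, printed as 29 bases of the GENCODE M21 transcript, 5′ to 3′, with the variable base in capitals. They were chosen to represent genes that rose in the first step, in both steps, by day 56 only, or enough only from day 35 to day 56. A gene read from both alleles throughout and a gene with a low share on each day follow.
Dynlt3: ggaaaagagtctggTcctccgtggaaaat
Hdac6: caggcagggcagctTagttcaccgcagtc
Porcn: cctttctctactccTtttcccttatccat
Fundc1: gcaaagagacagatAaagaagcgagcaaa
Pim2: ccaaaggaagccccAcccccttgccctgg
Alg13: catttaaagagacaAaaaaatccaaacag
Timp1: ccgatgacctgaagCcttcccccaggaaa
Timm17b: tgaggaagccgctgCctgacccccgccac
Tspyl2: gaggacagctatgaAgatgagcgaatcta
Tfe3: tataatgtatccgtGttttgtttgtgaat
Bcor: ccagatgaggaagaGgatacctatagcga
Tmsb4x: gatcagactctcctCgttcgcgcagctcg
Eif2s3x: cacagactcaaacaAggccctgatggcag
Rps4x: caaaacattggatgCtggataagttgact

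Positions in these windows are counted from 1 at the 5′ end, and each substitution gives the reference base, the position and the variant base. The Dynlt3 window (mm10 chrX:9655070-9655098, minus strand, untranslated region) carries T15C. At that site the reference T was read 10 times in 120 reads, then 16 times in 64 and 38 times in 105, on the 3 days in order. The Hdac6 window (chrX:7930403-7930431, minus strand, untranslated region) carries T15C, and its reference reads numbered 6 of 134, 15 of 75 and 34 of 96. The reference base was thus seen more often on each later day at both sites.

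Of the other genes that rose in the first step, Porcn has T15C (chrX:8194074-8194102, minus strand, untranslated region), Fundc1 has A15T (chrX:17558718-17558746, minus strand, coding sequence), Pim2 has A15G (chrX:7882474-7882502, plus strand, coding sequence) and Alg13 has A15G (chrX:144374177-144374205, plus strand, untranslated region). Of the genes that rose by day 56, Timp1 has C15T (chrX:20874626-20874654, plus strand, untranslated region), where 9 of 62, 5 of 28 and 20 of 44 reads had the reference C. Timm17b has C15T (chrX:7906574-7906602, plus strand, untranslated region) and Tspyl2 has A15C (chrX:152337523-152337551, minus strand, coding sequence). The genes that passed only from day 35 to day 56 show G15C in Tfe3 (chrX:7774924-7774952, plus strand, untranslated region), G15C in Bcor (chrX:12038984-12039012, minus strand, coding sequence) and C15T in Tmsb4x (chrX:167209111-167209139, minus strand, untranslated region). Eif2s3x has A15C (chrX:94190069-94190097, minus strand, untranslated region), with 76 of 212, 119 of 271 and 117 of 274 reference reads, so both bases were common on every day. Rps4x has C15T (chrX:102188303-102188331, minus strand, coding sequence), with 14 of 1346, 35 of 1493 and 41 of 1007 reference reads, a low share on each day at high coverage.

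Between days 35 and 52 the second allele rose in 12 genes and fell in none. A gene was called when its reference share changed by at least 10 percentage points with an adjusted p under 0.05 (two-sided Fisher's exact test, Benjamini-Hochberg adjustment over all genes of the step), and 4.94% of the 243 tested genes were called higher. In order of size the 12 were Porcn, Plp2, Fundc1, 1810030O07Rik, Dynlt3, Hdac6, Pim2, Alg13, Gpm6b, Med14, Wdr13 and Gpkow. The median change over all 243 genes was 0.448 points, with 136 genes above 0 and 82 below. At an adjusted p under 0.05 whatever the size, 30 genes (12.3%) were higher. Levels below are at the sites listed on all 3 days, with 95% Wilson intervals for reads pooled over those sites, while changes and tests use all sites shared by the 2 days of a step.

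Dynlt3 encodes a light chain of cytoplasmic dynein (X:9654267-9663003, minus strand). On days 35, 52 and 56 its reference share was 5.30% (4.15 to 6.75), 22.9% (20.1 to 25.9) and 36.1% (33.3 to 38.9) over 20 sites, 19 of them untranslated. The 3 intervals were apart, and the day 35 level lay near the 5.99% of MEF1 and above the 2.18% (1.56 to 3.05) of MEF2. The first-step rise of 17.5 points (95% interval 14.4 to 20.8) had an adjusted p of 4.55e-28 in Fisher's exact test, and the share rose at 20 of 20 sites. Hdac6, a deacetylase of tubulin (X:7930120-7947889, minus strand), went from 4.88% (3.84 to 6.18) to 19.0% (16.6 to 21.6) and 29.8% (27.2 to 32.5) over 18 sites. Its first step was a rise of 14 points (11.4 to 16.8, adjusted p = 6.29e-25, Fisher's exact test), at 18 of 19 sites. Dynlt3 and Hdac6 were the 2 genes called in both steps: in the second they rose by a further 12.3 points (8.23 to 16.3, adjusted p = 2.01e-07, Fisher's exact test) and 11.0 points (7.42 to 14.5, adjusted p = 1.25e-07).

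Porcn, Fundc1 and Plp2 stood at day 52 close to or above their day 56 level. Porcn, the enzyme that acylates Wnt proteins (X:8193848-8206525), had 1 reference read among 49 at day 35 and stood at 2.04%, 37.2% (27.3 to 48.3) and 40.4% (28.2 to 53.9) on the 3 days, over only 2 sites. Fundc1, a mitophagy receptor of the outer mitochondrial membrane (X:17556564-17572325), stood at 9.09% (4.47 to 17.6), 33.6% (25.5 to 42.9) and 28.7% (21.0 to 37.9) over 3 sites, all of which rose in the first step and none in the second. Plp2, a membrane proteolipid, stood at 11.4%, 44.4% and 30.6% at a single coding site read 35 to 49 times, and its change from day 35 to day 56 was not called. These 3 genes had the largest first-step rises together with the fewest reads: 35.1 points (22.0 to 46.4, adjusted p = 3.20e-05) for Porcn, 24.5 points (12.8 to 34.9, adjusted p = 0.00136) for Fundc1 and 33.0 points (12.2 to 50.4, adjusted p = 0.0258) for Plp2, all by Fisher's exact test.

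Alg13 gave the densest record of a rise confined, among the called steps, to the first. It encodes a subunit of the enzyme that adds the second sugar to N-glycan precursors (X:144317804-144374450), and its 33 sites are all untranslated. The reference share stood at 12.4% (10.8 to 14.1), 24.5% (22.6 to 26.6) and 25.6% (23.7 to 27.6) on the 3 days. The first-step rise of 12.5 points (9.93 to 15.1, adjusted p = 5.64e-19, Fisher's exact test) was seen at 34 of 35 sites, and no site fell. The second-step change was 1.25 points with an adjusted p of 0.730. Med14, a subunit of the Mediator complex, stood highest at day 52 at a lower depth, with 6.70% (4.10 to 10.8), 18.6% (14.8 to 23) and 15.5% (12.5 to 19.0) over 9 sites. The Med14 sites were not alike: on day 35 they ran from 0% to 65%, with a median of 0%. The median site stood at 18.4% on day 52 and 13.7% on day 56. The pooled change of Med14 from day 35 to day 56 was 9.50 points (adjusted p = 0.00043, Fisher's exact test), under the size limit and so not called.

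Pim2, Wdr13 and Gpkow had been called in the first step and were still higher at day 56. Pim2, a serine/threonine kinase (X:7878262-7883432), stood at 2.83% (0.967 to 7.99), 16.8% (12.3 to 22.6) and 26.6% (19.6 to 35.0) over 4 sites. Wdr13, a WD-repeat protein, stood at 1.81%, 11.7% and 21.9% over 5 sites, with 0 reference reads among 126 in MEF1 and 156 in MEF2. Gpkow, a G-patch protein of the spliceosome, stood at 4.01%, 14.5% and 17.0% over 10 sites. Gpm6b, a membrane glycoprotein, rose by 11.9 points over 5 sites (4.57 to 18.7, adjusted p = 0.0216, Fisher's exact test), but only 1 of its sites was listed on all 3 days, with 0 of 23, 3 of 22 and 4 of 32 reference reads. The uncharacterised gene 1810030O07Rik, listed among the escape genes, started higher than the rest, at 19.7% (14 to 27), and reached 37.6% (29.8 to 46.1) and 40.1% (32.7 to 48.1). In MEF1 and MEF2 it had 2 of 48 and 2 of 22 reference reads, at only 2 and 1 of its 5 sites.

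**Figure D1:**
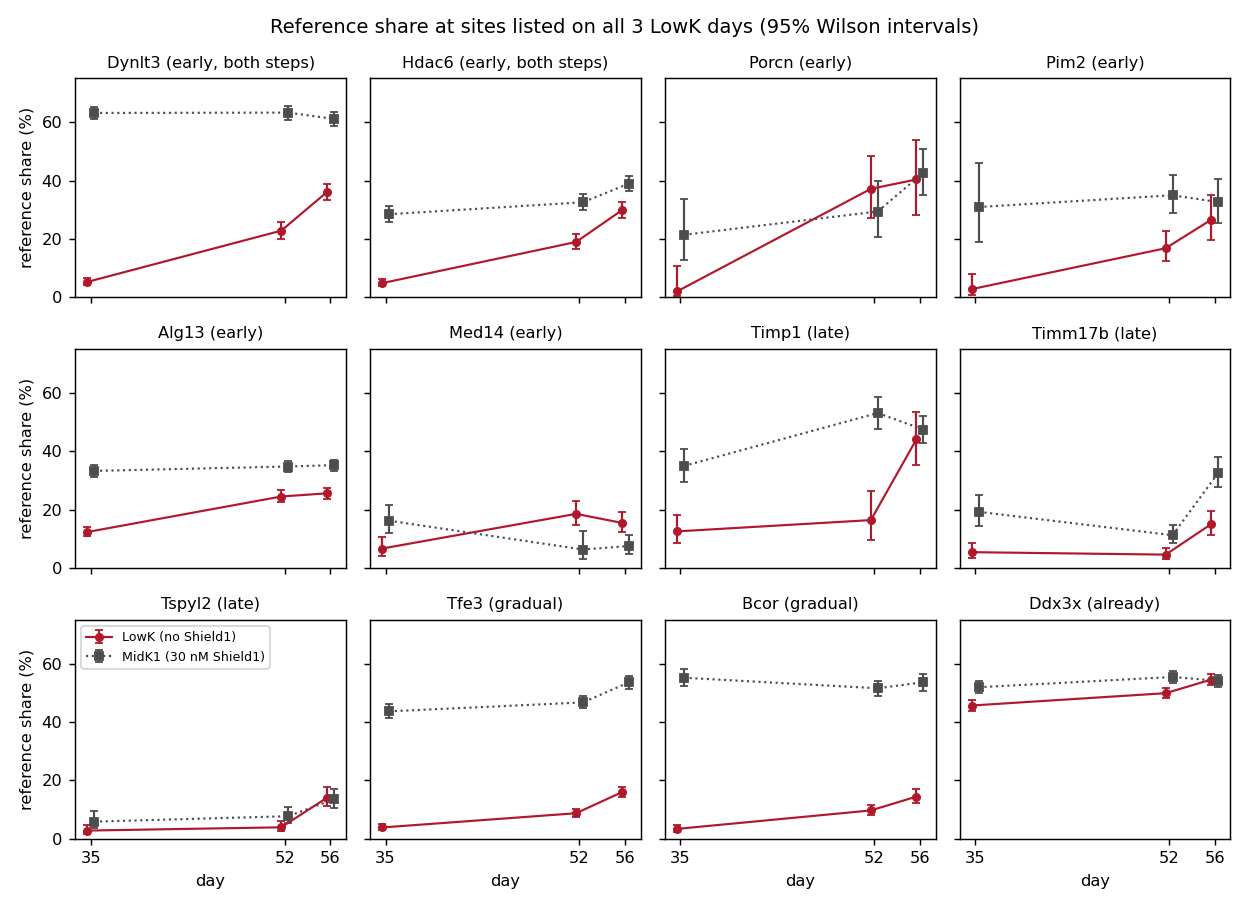
Reference share in percent (y axis) on days 35, 52 and 56 (x axis, to scale) for 12 genes, at the sites listed on all 3 LowK days, in LowK (circles, solid line) and MidK1 (squares, dotted line). Bars are 95% Wilson intervals for pooled reads. Dynlt3 and Hdac6 climb in both LowK steps, Alg13 stays level after day 52 (24.5% and 25.6%), Timp1 climbs mainly after day 52 (16.4% to 44.1%), and Ddx3x lies between 45.7% and 54.6% throughout.

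Between days 52 and 56, a step of 4 days, the second allele rose in 9 genes and fell in none, which is 3.56% of the 253 tested. They were Timp1, Las1l, Ctps2, Praf2, Dynlt3, Hdac6, Timm17b, Tspyl2 and Pbdc1. The median change over all 253 genes was 1.11 points. At an adjusted p under 0.05 whatever the size, 41 genes (16.2%) were higher and none lower, so small rises outnumbered small falls. The same held between days 52 and 56 of MidK1, where the median was 2.37 points and 61 genes (25.8%) were higher at any size with none lower, 16 of them (6.78%) by at least 10 points. MEF2 against MEF1, the pair with a shared label, had a median of -1.70 points, with 52 genes (29.9%) lower and 1 higher (0.575%) at any size and a single call of 174 (Tspan6, lower by 11.2 points). Shifts of 1 to 2 points over most genes thus occurred between libraries of 1 kind too, although the lowest variant percent listed was 10.2 in MEF1 and 5 in MEF2, and the cause was not tested.

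Timp1, the secreted inhibitor of metalloproteinases (X:20870166-20874735), made the largest second-step rise, 27.7 points (14.2 to 39.2, adjusted p = 0.00126, Fisher's exact test). Over 3 sites its reference share stood at 12.6% (8.59 to 18), 16.4% (9.66 to 26.6) and 44.1% (35.3 to 53.4) on the 3 days. The day 56 interval lay above the other 2, which overlapped. Timp1 is itself on the fibroblast marker list, and its reads fell from 191 at day 35 to 73 at day 52 before reaching 111 at day 56. In MEF1 and MEF2 its reference share was 2.93% and 0.951%.

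Timm17b and Tspyl2 were flat first and rose late over more sites. Timm17b, a subunit of the mitochondrial import channel (X:7899357-7908351), stood at 5.45% (3.43 to 8.55), 4.61% (3.12 to 6.76) and 15.1% (11.5 to 19.5), and 7 of 7 sites rose in the second step by 10.5 points in all (6.30 to 15.2, adjusted p = 1.10e-05, Fisher's exact test). Tspyl2, a nucleosome assembly family protein (X:152336852-152342425), stood at 2.82% (1.62 to 4.86), 3.93% (2.50 to 6.13) and 14.1% (11.1 to 17.7), and 12 of 13 sites rose, by 10.1 points in all (6.42 to 14, adjusted p = 2.82e-06 in the exact test). Both were thus close to their MEF levels (5.03% and 2.19% for Timm17b, 5.05% and 2.41% for Tspyl2) as late as day 52.

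Ctps2 and Praf2 were late on thin data. Ctps2, a CTP synthase, had 3 of 118, 1 of 72 and 14 of 101 reference reads at 3 sites. Praf2, a membrane protein of vesicle transport, had 1 of 81, 1 of 105 and 11 of 82 at 2 sites. Pbdc1, an escape gene, was already at 28.4% (24.6 to 32.6) on day 35 and 30.9% (27.5 to 34.4) on day 52 before it reached 40.9% (37.3 to 44.6), a level close to its 43.7% in MEF1 and 42.3% in MEF2. Las1l, an endonuclease of ribosomal RNA processing, was called at 12.7 points (adjusted p = 0.000232, Fisher's exact test), but its sites were not alike: on day 35 they ran from 0% to 88.0%, with a median of 3.92%. With each site given the same weight on both days its second-step change was 2.29 points, so most of the pooled difference came with a shift of reads between sites. No other called gene of either step differed by more than 2 points between the pooled and the fixed-weight change.

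**Figure D2:**
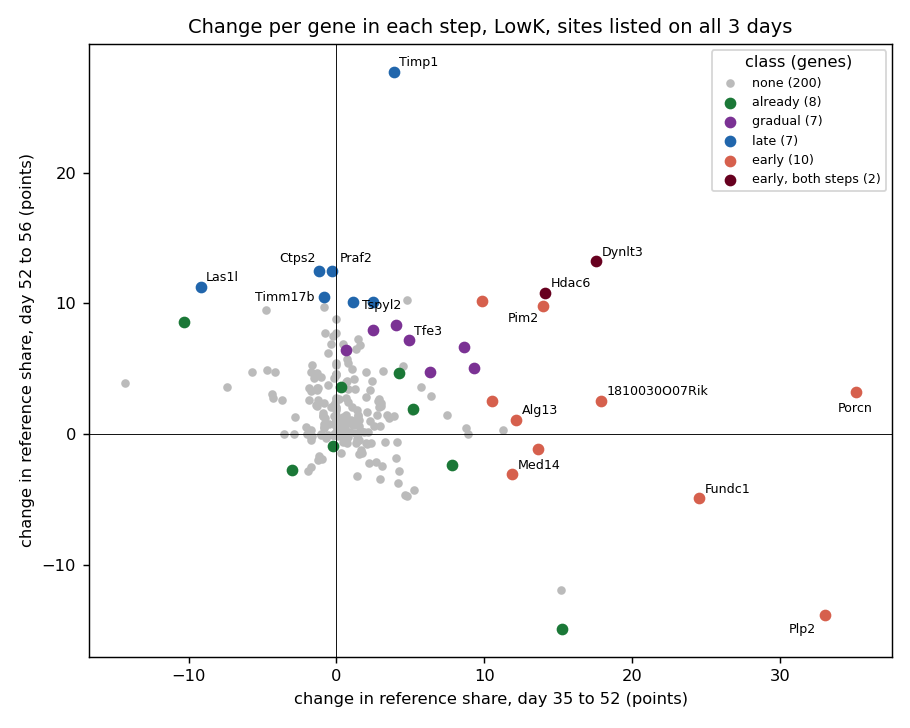
Change in reference share (percentage points) from day 35 to 52 (x axis) and from day 52 to 56 (y axis) for the 234 genes tested in both LowK steps, at sites listed on all 3 days, coloured by timing class. The 2 axes share the day 52 library, so an error there moves a point down one axis and up the other. Porcn, Plp2 and Fundc1 lie far to the right, Timp1 far up, Dynlt3 and Hdac6 in both directions, and 200 genes are called in no comparison and belong to no class.

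Over the whole span from day 35 to day 56, 21 genes rose and none fell, 8.47% of 248, with a median over all genes of 1.88 points. Of the 12 genes called in the first step 9 were also called over the whole span, and of the 9 called in the second 7 were. A further 7 genes passed only over the whole span: Tmsb4x, Tfe3, Bcor, Atp6ap2, Acot9, Renbp and Taz. Tfe3, a transcription factor of lysosome genes (X:7762560-7775202), stood at 3.88% (2.92 to 5.13), 8.76% (7.55 to 10.1) and 15.9% (14.2 to 17.8) over 21 sites, a rise of 12.1 points (9.93 to 14.2, adjusted p = 8.31e-25, Fisher's exact test). Bcor, a corepressor found in Polycomb complexes (X:12036740-12160355), stood at 3.39% (2.46 to 4.65), 9.71% (8.02 to 11.7) and 14.5% (12.2 to 17.0) over 15 sites. The intervals of the 3 days were apart for both genes, with each step under the size limit.

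Tmsb4x gained more in the first step and Atp6ap2 more in the second, and the difference between these genes was not tested. Tmsb4x, which binds monomeric actin (X:167207093-167209315), stood at 3.35% (2.43 to 4.60), 12% (10.3 to 13.9) and 18.6% (16.3 to 21.2) at 1 deeply read untranslated site, with 951 to 1209 reads a day. Atp6ap2, an accessory subunit of the vacuolar proton pump (X:12587801-12617049), stood at 3.63% (2.49 to 5.26), 6.10% (4.55 to 8.15) and 14.1% (11.5 to 17.1) over 11 sites, all of which rose in the second step. Acot9, a mitochondrial thioesterase, Renbp, the renin binding protein, and Taz, which remodels cardiolipin, are named after their values were seen. Over 5, 3 and 2 sites they went from 13.0%, 6.94% and 2.17% at day 35 to 25.4%, 21.2% and 9.26% at day 56. Taz had only 2 of 92 and 5 of 54 reference reads at these sites, where its change was under the size limit. Its call used all sites shared by days 35 and 56.

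Whether a gene rose more in one step than in the other was tested directly at the sites of all 3 days, as the second change minus the first with binomial variances (z test, Benjamini-Hochberg adjustment over 234 genes). It compares whole steps, of 17 and 4 days, and not changes per day. This contrast passed for 16 genes, 13 with the larger second step (5.56%) and 3 with the larger first step (1.28%). By this binomial contrast, of the genes called in a step, Alg13 (-11.1 points, SE 2.42, adjusted p = 0.000479) and Med14 (-14.95 points, SE 4.80, adjusted p = 0.0303) passed as early, and Timm17b (11.3 points, SE 3.06, adjusted p = 0.00456) and Tspyl2 (9.01 points, SE 2.62, adjusted p = 0.0128) passed as late. Las1l passed too, with the reservation above. For Fundc1 and Praf2 (adjusted p = 0.0695 each), Ctps2 (0.0869), Plp2 (0.110), Porcn (0.122) and Timp1 (0.142) the difference between the steps did not pass in the same binomial contrast. Their order in time rests on the separate steps, and at these depths a difference between steps was not shown for them. Dynlt3 (adjusted p = 0.541) and Hdac6 (0.658) did not pass the binomial contrast either.

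Other genes that passed the contrast as late moved by small amounts and were singled out after their values were seen. Maged1 went from 3.90% to 3.52% and 10.4%, rising at 9 of 9 sites in the second step. Bcap31 went from 3.81% to 3.0% and 10.7%, and Kif4, a chromosome-bound kinesin, from 2.51% to 0.820% and 6.07%. Prdx4 (6.65%, 2.50% and 7.26%) and Taf1 (12.9%, 7.13% and 11.9%) dipped at day 52 and returned to about the day 35 level. For these 2 genes and for Kif4, as for Las1l, the fall in the first step had an adjusted p under 0.05 in Fisher's exact test but was under 10 points, and these 4 (1.65% of 243) were the only genes lower at any size in a LowK step. Nono passed as the third early gene, but with sites given equal weight on both days its changes were 1.44 and 1.08 points, so its pooled contrast also came with a shift of reads between sites.

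**Figure D3:**
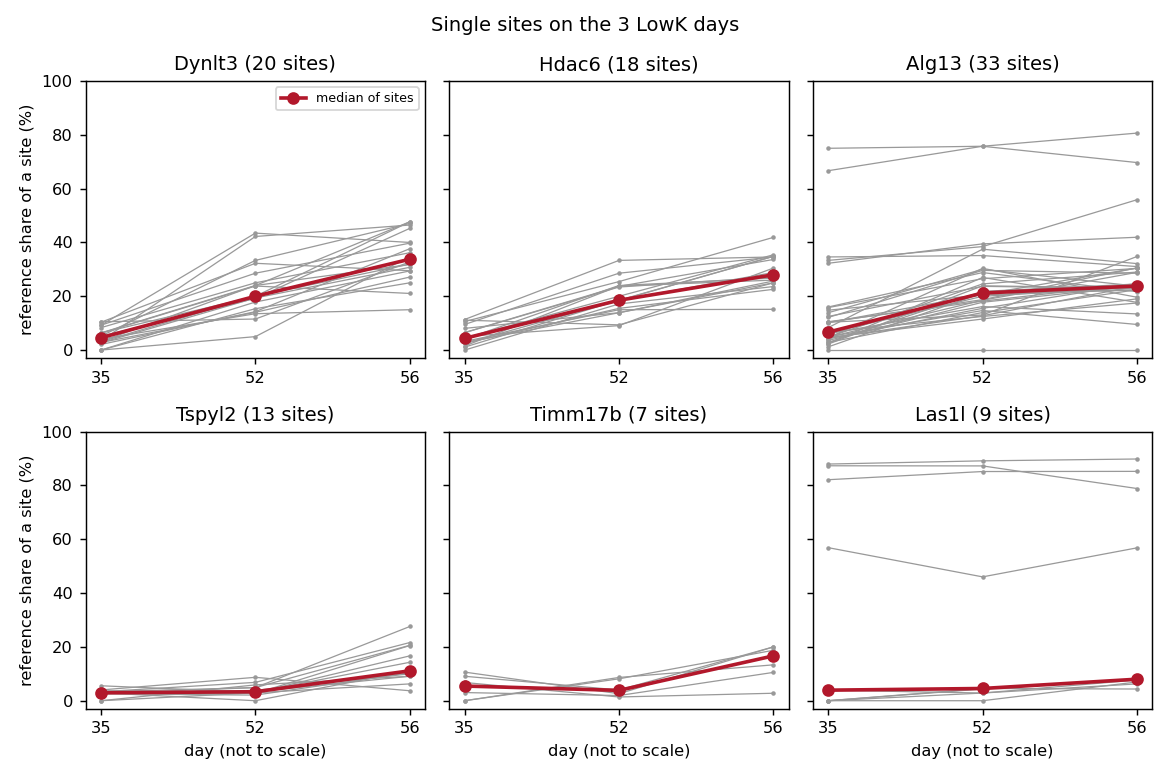
Reference share in percent (y axis) of every single site listed on all 3 LowK days (grey lines) and the median of the sites (red) for 6 genes, with days 35, 52 and 56 equally spaced. The sites of Dynlt3, Hdac6 and Tspyl2 move together, whereas Las1l mixes sites near 0 with sites near 88%, and its median goes from 3.92% to 4.55% and 8.0%.

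Sites of the same gene moved together in most of the called genes. In Hdac6 the lowest, median and highest site stood at 0%, 4.34% and 11.4% on day 35, at 9.09%, 18.5% and 33.3% on day 52, and at 15.2%, 28% and 41.9% on day 56. In Tspyl2 they stood at 0%, 2.94% and 5.56%, then 0%, 3.33% and 8.70%, then 3.70%, 11.1% and 27.6%. Alg13 was wider, with single sites from 0% to 75% on day 35, since a few of its sites were read mostly from the reference allele on every day. The variants that had been left out of the sums (insertions, deletions, multi-base variants and sites under 20 reads) were a partial check, as they can lie on the same reads. In the first step they rose in 11 of the 11 called genes that had any, by a median of 16.1 points, against 105 of 186 other genes and a median of 0.667. In the second step they rose in 8 of 8 (9.46 points) against 127 of 205 (1.59 points), and over the whole span in 18 of 19 (15.5 points) against 131 of 189 (2.48 points), with Tspyl2 as the exception.

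A higher reference share can come from more reference reads or from fewer variant reads, so the reads of each allele were counted per 100000 reads over all sites of the 3 days. Among the 26 genes called in some LowK comparison, 25 had reference reads at day 35, and in all 25 these were more abundant at day 56, by a median ratio of 4.32. The variant reads of the same genes fell in 17 of 26, with a median ratio of 0.819. Among the 208 genes that were not called the median ratios were 1.85 for reference reads and 0.960 for variant reads, with more reference reads in 122 of the 165 that had any at day 35 and fewer variant reads in 114 of 208. The choice of the called genes by their share favours these directions.

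Dynlt3 had 50.4, 131 and 321 reference reads per 100000 on the 3 days and 901, 443 and 570 variant reads. Hdac6 had 52.9, 134 and 262 reference reads and 1032, 573 and 617 variant reads. Their rise over the first step therefore came with fewer variant reads as well as more reference reads, while over the second step reads of both alleles grew. Timp1 differed: its reference reads went from 19.8 to 8.71 and 37.5, and its variant reads from 138 to 44.3 and 47.5. The late rise of Timp1 was a rise of reference reads at an almost level variant count. Tfe3 kept its variant reads (944, 1225 and 1030) while its reference reads went from 38.0 to 118 and 195.

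**Figure D4:**
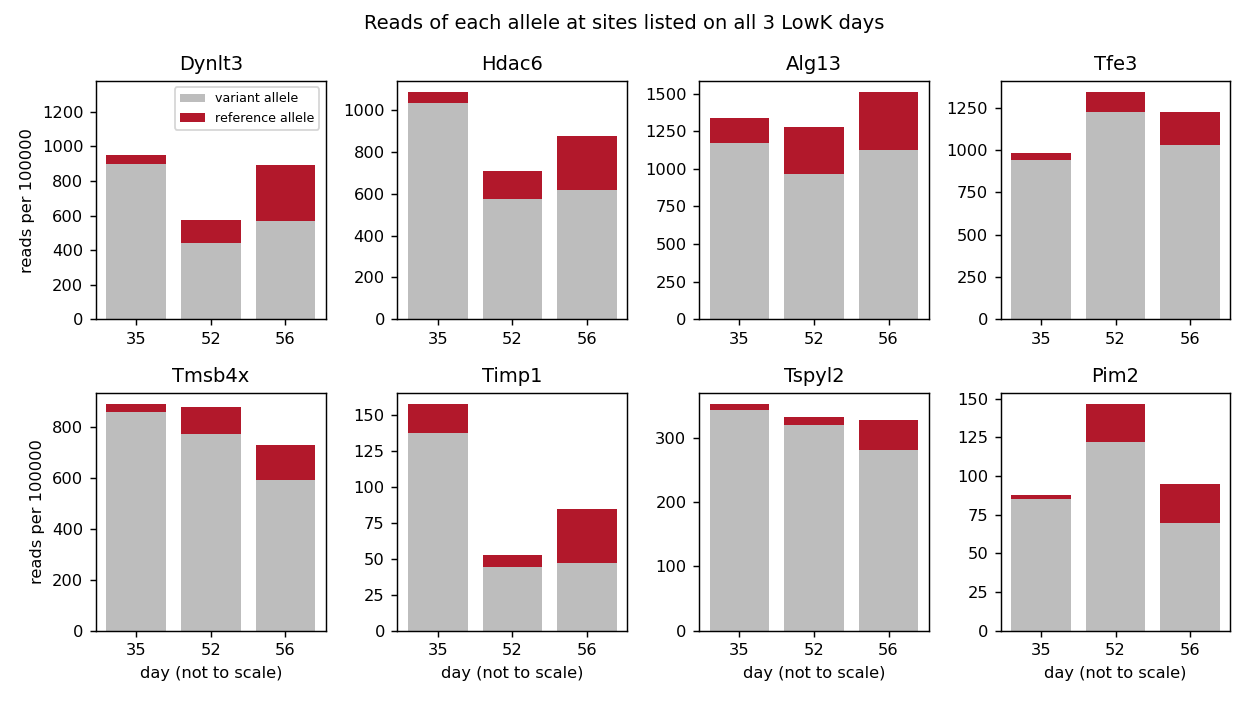
Reads per 100000 (y axis, from 0, scaled per gene) of the variant allele (grey) and, stacked above, of the reference allele (red) on LowK days 35, 52 and 56 for 8 genes, at sites listed on all 3 days. Reference reads of Dynlt3 grow from 50.4 to 131 and 321 while its variant reads go from 901 to 443 and 570.

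Most of the genes that rose early lay in the first 30 Mb of the chromosome. There, 10 of 44 tested genes were called in the first step (22.7%) with a median change of 1.36 points, and beyond it 2 of 196 (1.02%), Alg13 and Gpm6b, with a median of 0.181. Of the 10, Plp2, Gpkow, Pim2, Hdac6, Wdr13 and Porcn lay within 539 kb, and 1810030O07Rik and Med14 lay 1701 bases apart. The higher share in the first 30 Mb thus came largely from short stretches, and the 30 Mb limit was not among the planned comparisons. In the second step the counts were 5 of 47 (10.6%, median 2.55 points) and 4 of 204 (1.96%, median 1.01). Over the whole span they were 13 of 45 (28.9%, median 5.37) and 8 of 201 (3.98%, median 1.52). Of the 7 late genes 3 lay in the first 30 Mb, against 10 of the 12 called in the first step.

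Neighbouring genes differed in level and timing. The stretch from Plp2 to Porcn (X:7667941-8206525, 539 kb, singled out after the values were seen) held 18 genes tested in both steps, of which 9 were called: 6 in the first step, with Hdac6 in both, 2 in the second and Tfe3 over the whole span. Over all 234 genes tested in both steps, 26 were called (11.1%). Hdac6 lies 5710 bases from Pcsk1n, which encodes the secretory precursor proSAAS, and Pcsk1n stood at 0.631%, 1.11% and 2.08% at 7 coding sites with 1899 to 2695 reads a day. On the other side of Pcsk1n, 11471 bases away, lies the late gene Timm17b. The early gene Porcn lies 336 bases from Ebp, an enzyme of sterol synthesis, which stood at 4.23%, 5.25% and 10.2% and was not called. Suv39h1, a histone methyltransferase, stood at 0%, 1.35% and 7.83%, and Rbm3 at 2.99%, 2.73% and 10.2%, neither of them called. The differences between neighbours were not tested.

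A second stretch, also singled out after the values were seen, from Bcor to Ddx3x (X:12036740-13294052), held 6 tested genes in all. Bcor and Atp6ap2 were called only over the whole span, and 1810030O07Rik and Med14, which lie 1701 bases apart, rose early. Usp9x (4.13%, 7.03% and 9.07%) was not called, and Ddx3x was read from both alleles throughout. Around Timp1, by contrast, the 4 other tested genes between X:20658326 and X:20874735 were not called: Uba1 (3.38%, 4.55% and 8.73%), Cdk16 (0.833%, 4.36% and 5.62%), Usp11 (0.578%, 1.03% and 0.407%) and Araf (0%, 1.25% and 4.70%). At day 56 these 4 stood between 0.407% and 8.73%, beside 44.1% for Timp1.

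By function, the called genes were spread over several lists, to be read beside the 4.94%, 3.56% and 8.47% of all genes called in the 3 comparisons. No list was tested against them. Of the chromatin and transcription genes, 2 of 19 were called in the first step (Hdac6 and Med14, list median 0.196 points), 1 of 19 in the second (Hdac6, median 2.90) and 3 of 21 over the whole span (Bcor, Hdac6 and Tfe3, median 1.86). Matrix and cytoskeleton genes of fibroblasts gave 2 of 15 (Plp2 and Dynlt3, median 2.51), 2 of 16 (Timp1 and Dynlt3, median 1.11) and 3 of 16 (Timp1, Tmsb4x and Dynlt3, median 3.38). Housekeeping genes gave 0 of 28, 1 of 28 (Timm17b) and 1 of 29 (Atp6ap2), with medians of 0.730, 0.776 and 1.56 points. Ubiquitin pathway genes gave no call among 13, 12 and 13 tested in the same Fisher's exact tests, with medians of 0.519, 1.54 and 2.17 points. Of the pluripotency and germline list 4, 5 and 4 genes were tested, and Tfe3 was the single call, over the whole span.

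Of the genes listed as escaping X inactivation, 5 of the 10 tested in the first step stood at 20% or more on day 35. The other 5 were lower, among them Firre, a noncoding RNA, at 4.25%, 8.74% and 13.9% on the 3 days. Of the 18 on the list, 10 were tested in the first step with a median change of 4.36 points and 1 call (1810030O07Rik), 11 in the second with a median of 4.67 points and 1 call (Pbdc1), and 10 over the whole span with both calls and a median of 8.03 points. Ddx3x, an RNA helicase (X:13280970-13294052), stood at 45.7% (43.6 to 47.7), 49.9% (48.2 to 51.6) and 54.6% (52.8 to 56.3) over 16 sites, with MEF levels of 42.8% and 44.5%. Its small rises had adjusted p of 0.0212 and 0.00191 in Fisher's exact test and were under the size limit. Eif2s3x, a subunit of translation initiation factor 2, stood at 39.4%, 44.6% and 46.5%. Kdm5c, a histone demethylase, stood at 28%, 35.8% and 33.5%, and Kdm6a, another histone demethylase, at 50.9%, 40.6% and 49.2% over 2 sites read 180 times in all.

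Of the 234 genes tested in both steps, 8 stood between 20% and 80% at day 35 and were called in no comparison. Beside those 4 escape genes they were Ammecr1, Hmgn5, Tceal3 and Gm7331, and none of the 4 gives a clear level. Ammecr1 (28.8%, 29.1% and 32.7%) and Hmgn5 (24.8%, 24.6% and 23.7%) mix sites read almost wholly from either allele, from 0% to 80.6% and from 0% to 88.1% at day 35. Tceal3 has 1 site (66.3%, 81.6% and 66.7%), against 14.3% in MEF1, and Gm7331 is a processed pseudogene whose reads may belong to another copy.

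Most genes were not called in any comparison, although small rises were common. From day 35 to day 56, 190 of 248 genes were above 0 and 40 below, and at an adjusted p under 0.05 whatever the size 79 (31.9%) were higher and none lower. Of the 234 genes tested in both steps 200 fell in no timing class, and their median reference share was 1.39%, 1.96% and 3.42% on the 3 days. At high depth these low levels were well bounded. Rps4x, a ribosomal protein of the small subunit, stood at 0.867%, 1.91% and 3.95% with 4258 to 5653 reads a day, and its steps of 1.04 and 2.04 points had adjusted p of 5.85e-05 and 1.66e-07 in Fisher's exact test but were under the size limit. Pdha1, a subunit of pyruvate dehydrogenase, stood at 0.821%, 0.987% and 1.54%, and Capn6, a calpain family protein, at 0.722%, 1.16% and 1.52%. Sh3bgrl stood at 2.51%, 3.94% and 3.91%, and Rlim, a ubiquitin ligase that promotes Xist expression, at 1.34%, 1.86% and 1.78%. Atrx, a chromatin remodeller, stood at 5.37%, 4.04% and 7.42% over 45 sites. The pseudogene Gm14681 stayed under 1% and may share reads with its parent gene.

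Counted over all 234 genes, 27 had a reference share of at least 10% at day 35, 39 at day 52 and 58 at day 56, and the median gene stood at 1.97%, 2.54% and 4.64%. By a separate measure a gene counted as biallelic when the median over its sites of the rarer allele's share was at least 10%. Between days 35 and 52, 17 genes became biallelic and 1 ceased to be, and between days 52 and 56, 18 became so and none ceased. Each step used its own shared sites, so the gains are not successive and Ftsj1 and Gpm6b count in both. Their day 52 shares were 10.2% and 16.7% at the sites of the first step, and 7.02% and 8.74% at those of the second. The counts of biallelic genes are a description with no test, because genes of 1 pair of libraries are not independent. Of the 17 genes of the first step 10 were also called and 9 lay in the first 30 Mb. Of the 18 of the second step 4 were called, and their median rarer-allele share at day 56 was 12.6%, with 16.7% as the highest, so most had just passed the limit. At a limit of 20% in place of 10% the counts were 7 against 1 and 6 against 1.

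Positions that appear in a table for the first time give the view from the other side, because a site read only from the reference allele is listed once variant reads come in. Of the usable sites at day 52, 258 had not been listed at day 35, and 47 of these had a variant share under 50%. In the reverse direction, 86 sites of day 35 were not listed at day 52, 26 of them with a variant share under 50%. Between days 52 and 56 the counts were 146 (40 under 50%) against 152 (39 under 50%). New sites were thus not in excess in the second step, and a lack of coverage cannot be told from all-reference reads. Genes with the most new sites at day 56 compared with day 35 were Ids, Gm14569, Xiap, Armcx4 and Ammecr1, with 9, 7, 6, 5 and 4, and the variant shares over the new sites were 96.0%, 91.0%, 83.4%, 98.2% and 61.9%. Of all 157 new sites of that comparison 94 had a variant share of at least 90%, so most new sites were read mainly from the variant allele.

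Xist itself had no usable site at day 35. At day 52 it had 2 unlike sites, with 49 of 55 and 0 of 20 reference reads, and at day 56 another site, with 39 of 44. In MEF1 its single site, the one with no reference reads at day 52, had 0 of 23. In MEF2 that same site had 0 of 33, while all other Xist sites listed there stood between 89.3% and 94.4%. Those levels were near the 89.1% and 88.6% of the other LowK sites at days 52 and 56. The level of Xist thus depends on which site is listed. Bgn, a matrix proteoglycan and the most abundant fibroblast marker in MEF1, had a reference share of 75.2% (69.1 to 80.5) among 218 reads at day 35, against 3.71% in MEF1, and no usable site later. For these 2 genes the LowK days do not share sites, so no change was tested.

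The course with Shield1 had higher reference shares at day 35 for many of the genes that later rose in LowK. In MidK1 on that day the 10 genes called early in LowK had a median reference share of 38.6% (range 6.63% to 80.1%), the 2 called in both steps 28.5% and 63.2%, the 7 late genes a median of 28.1%, the 7 called only over the whole span 20.3% and the 184 measured genes of no class 3.48%. Whether LowK and MidK1 changed by different amounts from day 35 to day 56 was tested per gene over 223 genes (z test with binomial variances, Benjamini-Hochberg adjustment, at least 10 points). The LowK change was larger in 7 genes (3.14%) and smaller in 12 (5.38%).

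The genes with the larger LowK change did not all behave alike in MidK1. Dynlt3 differed by 32.8 points (SE 2.20), with 63.2% and 61.1% in MidK1 at days 35 and 56. Gpkow differed by 22.9 points (SE 4.27), with MidK1 at 56.0% and 46.2%, Timp1 by 19.1 points (SE 6.50), Tmsb4x by 17.7 points (SE 2.16) and Hdac6 by 15.3 points (SE 2.50). In MidK1, Timp1 went from 34.98% to 47.5% and Hdac6 from 28.5% to 38.75%, both upward, and Tmsb4x from 20.3% to 17.8%. Bcor stood at 57.0% and 54.3% in MidK1 against 3.06% and 14.1% in LowK. For Dynlt3, Gpkow and Bcor the LowK level at day 56 was still the lower of the courses. Tmsb4x stood at day 56 at 18.6% (16.3 to 21.2) in LowK and 17.8% (15.6 to 20.4) in MidK1, with overlapping intervals.

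The genes with the smaller LowK change rose in MidK1. Klhl13, an adaptor of a ubiquitin ligase, went from 0.694% to 4.35% in LowK and from 15.2% to 54.9% in MidK1, a difference of -36.1 points (SE 5.37). Rbmx2, an RNA binding protein, went from 14.1% to 12.3% and from 19.2% to 53.4% (-36.1 points, SE 4.95). Its LowK level rests on 1 mixed site: that site held 27 of 40 reference reads at day 35 and 12 of 33 at day 56, while the other 5 sites went from 0 of 152 to 14 of 179. Uba1, the ubiquitin activating enzyme, went from 3.42% to 8.91% and from 22.0% to 47.2% (-19.6 points, SE 1.73). Sept6, a septin, differed by -17.3 points (SE 2.69), with 2.10% and 2.35% in LowK against 12.9% and 30.4% in MidK1 at the 13 sites common to the 4 libraries. Over its 23 sites of the 3 LowK days Sept6 stood at 3.60% at day 35 and 6.47% at day 56. Gm21887, a predicted gene near the end of the chromosome whose reads may belong to other copies, differed by -21.5 points (SE 5.29). Atp6ap2 rose in both courses and by less in LowK (10.5 against 24.4 points).

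**Figure D5:**
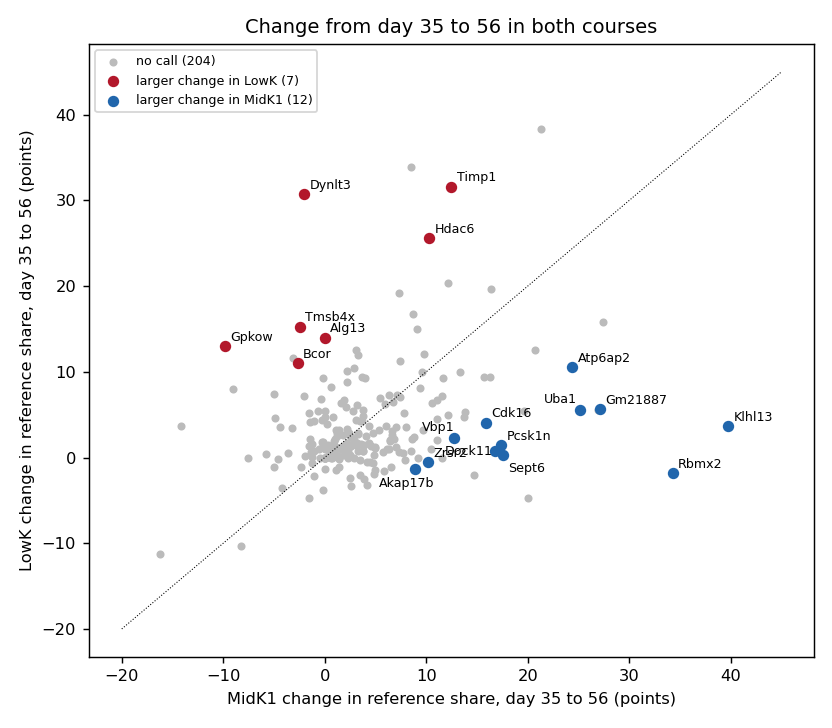
Change in reference share from day 35 to 56 (percentage points) in MidK1 (x axis) and LowK (y axis) for 223 genes measured in all 4 libraries; the dotted line marks equal change. The 7 red genes changed more in LowK, led by Dynlt3 at 30.7 against -2.03 points, and the 12 blue genes changed more in MidK1, led by Klhl13 at 3.65 against 39.7 points.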

How the data were processed

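The members and gene lists were chosen with earlier results of these data known. RNA-seq (poly(A) selected, directional kit, paired reads of 76 bases) was run by the authors, who called X-chromosome variants in CLC Genomics Workbench (Basic Variant Call), per the series description. Build mm10 is named in the submitters' processing notes. The aligner, read filters and caller settings were not given in the sources used here. The deposited tables give, per the file headers, the count of reads with the variant and the count of reads covering each position, not normalised. The lowest variant count listed in the LowK and MidK1 tables was 5 and the lowest coverage 10.

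Single-base variants with a coverage of at least 20 on both days of a step were kept. At positions with several alleles the most read allele was used (25 others dropped). A site naming several genes went to the 1 gene with an exon there in GENCODE M21, and otherwise was left out. All 4871 positions compared had the reference base of the M21 transcripts. Reference reads (coverage minus variant count) and variant reads were summed per gene and compared by Fisher's exact test (two-sided). P-values were adjusted over all genes (Benjamini-Hochberg), with calls at adjusted p under 0.05 and 10 points. Contrasts between steps or courses were z tests with binomial variances after adding 0.5 reads to each class. The McNemar test planned for biallelic genes is not printed, since genes of 1 pair of libraries are not independent. Intervals are Wilson (levels) and Newcombe (differences). The tests were checked on simulated data with independent reads, which cannot show the effect of reads shared between sites. Early means called in the first step, late only in the second, and gradual (a label of the figures) only from day 35 to 56, whatever the pace. Genes were named by rule: the 10 largest rises of each comparison, called members of the lists, the best covered genes of the other classes (8 each), the 5 genes with the most new sites and the 5 largest differences from MidK1 each way. Others are named as chosen after their values were seen. Alternatives were coverage limits of 10 and 50, a 20-point limit, a single site per gene, mean reads per site, sites of all 3 days, sites naming several genes left out, and a 20% limit for biallelic genes; the variants left out by the rule were added after seeing the data. The MidK2 tables were not used here. Python 3.11.15, pandas 2.3.3, scipy 1.17.1, numpy 2.4.6 and matplotlib 3.10.9 were used.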

Additional observations from a re-analysis of the deposited data

Results flagged for a closer look

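The change from day 35 to day 56 differed between LowK and MidK1 in 19 of 223 genes by a test of the difference itself (z test, Benjamini-Hochberg adjustment, at least 10 points). The LowK change minus the MidK1 change in reference share was 32.8 points for Dynlt3, 22.9 for Gpkow, 19.1 for Timp1, 17.7 for Tmsb4x, 15.3 for Hdac6, 14 for Alg13 and 13.7 for Bcor. It was -36.1 points for Klhl13, -36.1 for Rbmx2, -21.5 for Gm21887, -19.6 for Uba1, -17.3 for Sept6, -16.1 for Dock11, -15.9 for Pcsk1n, -13.9 for Atp6ap2, -11.8 for Cdk16, -10.7 for Zrsr2, -10.5 for Vbp1 and -10.2 for Akap17b. Alg13 was level in MidK1, at 33.3% on both days. The test compares 4 libraries and covers counting error only.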

How the results depend on the processing

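No paired analysis was possible because each LowK and MidK1 day is 1 library and the groups share no replicate numbers beyond it. No gene named here and called in a LowK comparison changed direction under the other limits and ways of summing sites. In the variants left out by the rule, added after seeing the data, called genes fell in part: Tspyl2 by 3.07 points from day 35 to 56, and in insertions, deletions and multi-base variants alone Alg13 by 4.37 in the first step and Las1l by 4.19 in the second. For the first step, the second step and the whole span (12, 9 and 21 called genes), a coverage minimum of 50 left 3, 2 and 7 calls with fewer genes tested, a limit of 20 points left 3, 1 and 6, the single best covered site per gene left 4, 1 and 12, and mean reads per site left 0, 0 and 4. Under the last, Fisher's exact test gave unadjusted p under 0.05 in 8 of 243 and 7 of 253 genes for the 2 steps. Apart from the 20-point limit these settings use fewer reads per gene or fewer genes, so the calls rest on summing sites, which can share reads. Variants left out by the rule gave 7 and 4 calls in the steps. Genes that were biallelic on the later day alone minus those on the earlier day alone numbered 16 and 18, and 6 and 5 at a 20% limit. The 16 genes of the contrast between steps became 28 at a coverage minimum of 10, 5 at 50, and 0 for both the single site (10 of 234 with unadjusted p under 0.05) and mean reads per site (5 of 234). The 19 genes that differed from MidK1 became 10 with the single site, 2 with mean reads per site and 5 at 20 points. The 1 call between the MEF libraries became 3 at a minimum of 10 and 0 at a minimum of 50, at 20 points, with the single site and with mean reads. Sites newly listed numbered 258, 146 and 157 for the 3 comparisons, 1160, 1065 and 1204 at a minimum of 10, and 18, 12 and 11 at 50, so their number follows the limit. For the single genes named, counted once per comparison, the call was the same for 114 values and lost for 26 with a single site, and the same for 107 and lost for 35 with mean reads per site. Values that were never called count as the same, and only called values can be lost. The 3 comparisons held 12, 9 and 21 calls over all genes, so most calls of the named genes were lost in both settings.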
